A study of Mus musculus with 10 samples.

Results

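SMAD2/3 binding without detected HEB binding was described in mouse embryonic stem cells (ESCs). The regions are those of the ESC SMAD2/3 ChIP-seq list that share no base pair with any region of the ESC HEB list, and they are called HEB-free here. They were chosen by the measured positions of the regions in these 2 lists, so the absence of ESC HEB and the gap to it are descriptions. The rule left 663 of 4111 ESC SMAD2/3 regions (16.1%), and the other 3448 regions are called HEB-overlapping. All 6 lists of the study together hold 78263 regions.

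The study profiled HEB and SMAD2/3 by chromatin immunoprecipitation and sequencing in the CGR8 mouse ESC line at passages 18 to 25 and in endoderm derived from it. ESCs were kept without feeders in serum with LIF. Endoderm cells had been moved to serum-free medium and had received 100 ng/ml Activin A from day 2 until chromatin was taken at day 4, and no label states that the endoderm cells were purified. The receptor kinase inhibitor SB431542 (SB) was applied at 10 µM, to ESCs for 24 hours and to differentiating cells that also received Activin A for 48 hours. The 6 groups were Endoderm+SB HEB, Endoderm SMAD2/3, Endoderm HEB, ESC+SB HEB, ESC SMAD2/3 and ESC HEB, each from 1 ChIP library, so every difference below is between single libraries and has no spread between replicates beside it. No test across samples could be made, and the 95% confidence intervals (CI) given with shares and medians cover counting error only. The listed regions held between 933126 ChIP tags (ESC SMAD2/3) and 5051930 (Endoderm HEB). RNA was not measured. Of 24 pluripotency genes, 12 had an ESC SMAD2/3 region, each of them HEB-overlapping, and 0 of 20 definitive endoderm genes had one.

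SMAD2 and SMAD3 enter the nucleus as transcription factors when Nodal, activin or TGF-β receptors are active. SMAD complexes bind DNA weakly on their own, at CAGAC elements and GC-rich 5-base elements, so that partner factors direct them to many sites. HEB, encoded by Tcf12, belongs to the basic helix-loop-helix E proteins and binds E-boxes (CANNTG), and FOXH1, which reads the motif AATCCACA, is another SMAD2/3 partner in early embryonic cells. In ESCs these proteins occupy genes of Nodal feedback and of early lineage choice, and in endoderm differentiation a strong activin signal drives the same SMADs.

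The promoters below show the letters at HEB-free SMAD2/3 regions that cover a gene's 5′ end. Each is the RefSeq window on GRCm38.p6 that runs from 250 bases before to 50 bases after the gene's start, 5′ to 3′, and capitals mark CAGAC (or GTCTG on the other strand), the SMAD palindrome GTCTAGAC, and the FOXH1 motif AATCCACA (or TGTGGATT). The 5 were chosen after their values were seen. Smad6 (chr9:64022010-64022309 on the minus strand) encodes an inhibitory SMAD and holds the palindrome. Ogdhl (chr14:32321769-32322068 on the plus strand), for a mitochondrial 2-oxoglutarate dehydrogenase-like enzyme, and Arid5a (chr1:36307483-36307782 on the plus strand), for an ARID-domain nucleic acid binding protein, hold 3 CAGAC matches each. Tex9 (chr9:72491910-72492209 on the minus strand), a testis-expressed gene, holds 1 FOXH1 match. Ankrd16 (chr2:11777503-11777802 on the plus strand), for an ankyrin repeat protein, holds 5 CAGAC matches.
Smad6: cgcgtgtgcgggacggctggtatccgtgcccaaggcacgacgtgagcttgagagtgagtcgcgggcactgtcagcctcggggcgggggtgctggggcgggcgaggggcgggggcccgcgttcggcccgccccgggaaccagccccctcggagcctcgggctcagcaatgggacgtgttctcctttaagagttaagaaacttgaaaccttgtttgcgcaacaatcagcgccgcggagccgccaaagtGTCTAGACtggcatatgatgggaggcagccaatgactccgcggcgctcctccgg
Ogdhl: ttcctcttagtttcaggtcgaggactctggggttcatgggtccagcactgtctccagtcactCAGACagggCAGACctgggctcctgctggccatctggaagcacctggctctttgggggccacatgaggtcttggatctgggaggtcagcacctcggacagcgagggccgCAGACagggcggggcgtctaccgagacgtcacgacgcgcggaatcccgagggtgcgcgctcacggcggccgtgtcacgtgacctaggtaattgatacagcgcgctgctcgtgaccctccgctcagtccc
Arid5a: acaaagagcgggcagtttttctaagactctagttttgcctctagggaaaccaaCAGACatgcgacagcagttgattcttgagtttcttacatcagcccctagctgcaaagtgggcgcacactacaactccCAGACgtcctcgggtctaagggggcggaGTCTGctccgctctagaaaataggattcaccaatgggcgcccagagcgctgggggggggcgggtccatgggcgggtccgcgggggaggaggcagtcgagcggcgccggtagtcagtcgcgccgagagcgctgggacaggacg
Tex9: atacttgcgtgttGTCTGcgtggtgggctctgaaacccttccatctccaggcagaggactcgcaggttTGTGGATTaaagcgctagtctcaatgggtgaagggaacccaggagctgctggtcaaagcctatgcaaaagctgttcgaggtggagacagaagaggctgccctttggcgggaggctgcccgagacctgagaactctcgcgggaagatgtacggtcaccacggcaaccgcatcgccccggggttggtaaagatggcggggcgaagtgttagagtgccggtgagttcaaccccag
Ankrd16: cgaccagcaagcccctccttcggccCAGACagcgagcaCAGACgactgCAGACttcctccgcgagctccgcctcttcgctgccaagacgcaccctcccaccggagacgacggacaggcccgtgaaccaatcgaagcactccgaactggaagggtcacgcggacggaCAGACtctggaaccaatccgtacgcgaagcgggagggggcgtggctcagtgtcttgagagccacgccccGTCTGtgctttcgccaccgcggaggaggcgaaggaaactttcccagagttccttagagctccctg

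The Smad6 window had 0 CAGAC matches, 1 palindrome and 1 E-box, and the Ankrd16 and Tex9 windows had 0 E-boxes. The Ogdhl window had 4 E-boxes and the Arid5a window had 1, although neither region overlapped ESC HEB. A match in these letters is a description of the window and not a bound site.

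Over all promoters of the kind, CAGAC was more frequent and the E-box less frequent than in windows at HEB-overlapping regions. The 5′ end of 133 genes lay in a HEB-free region, and 108 of them had 1 or more RefSeq windows, 136 windows in all. CAGAC, searched on both strands, was in 91 of 136 windows (66.9%, CI 58.3 to 74.7), in 144 of 279 windows at HEB-overlapping regions (51.6%, CI 45.6 to 57.6) and in 49.6% of all 32851 RefSeq windows. CANNTG was in 71 windows at HEB-free regions (52.2%, CI 43.5 to 60.8), in 186 at HEB-overlapping regions (66.7%, CI 60.8 to 72.2) and in 72.3% of all windows. The GC-rich element GGCGC, which SMADs also bind, was about as frequent in both sets, in 67.6% of windows at HEB-free regions, 64.2% at HEB-overlapping regions and 36.9% of all windows. The palindrome GTCTAGAC was in 2 windows at HEB-free regions (1.47%), 1 at HEB-overlapping regions (0.358%) and 0.213% of all windows, and AATCCACA was in 3 windows at HEB-free regions (2.21%), 1 at HEB-overlapping regions (0.358%) and 0.855% of all windows. Of 12 motifs searched, others also differed. GGGCGG was in 68.4% of windows at HEB-free and 59.1% at HEB-overlapping regions, CCGGAAG in 19.9% and 15.1%, and TGACGTCA in 7.35% and 4.30%. The E-boxes CAGCTG (9.56% and 13.98%) and CACCTG (15.4% and 23.3%) and another motif (8.09% and 10.4%) were less frequent at HEB-free regions. TATAAA was similar (6.62% and 6.09%). Intervals of both sets overlapped for each of these and for CANNTG, but not for CAGAC. Matches of different motifs may share bases. Windows of 1 gene overlap and were counted as independent, so these intervals are too narrow. The CAGAC bounds of 58.3 and 57.6 lay close, and whether they stay apart when counted by gene was not tested. The median GC content was 64.3% in windows at HEB-free regions, 60.7% at HEB-overlapping regions and 52.7% in all windows. The median number of CpG pairs per window was 25.5 at HEB-free regions, 21.0 at HEB-overlapping regions and 7.0 in all windows, and the part of base composition in the motif shares was not tested.

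Among the 663 regions, the one at Ppap2a stood highest. Ppap2a (Plpp1 in RefSeq) encodes a membrane phosphatase that removes phosphate from lipid signals such as lysophosphatidic acid. Its region at chr13:113632681-113633098 (mm9), 41550 bp from the listed 5′ end, had a ChIP height of 263, with 664 ChIP tags against 10 input tags, a ratio the authors deposited as a tag enrichment of 66.4. The nearest ESC HEB region was 71136 bp away. In endoderm a SMAD2/3 region with its summit 2 bp from the ESC summit had a height of 107, 260 ChIP tags against 1 input tag and an enrichment of 43.8. Endoderm SMAD2/3 also had regions at Ppap2a 34090 bp from the 5′ end (height 112) and over the 5′ end (height 26.7), where the ESC SMAD2/3 list had none. None of the 4 HEB lists had a region assigned to Ppap2a.

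Akap6 encodes an anchoring protein that holds protein kinase A at the nuclear envelope, and its HEB-free region lay 333328 bp from the listed 5′ end. There SMAD2/3 gave nearly the same values in both cell states, with a height of 152, 691 ChIP tags and an enrichment of 40.6 in endoderm, against a height of 155, 637 ChIP tags and an enrichment of 37.5 in ESCs, each with 17 input tags. Endoderm HEB had 5 regions at Akap6, but none overlapped the SMAD2/3 site, and no region of the ESC HEB, ESC+SB HEB or Endoderm+SB HEB lists was assigned to the gene.

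Bambi encodes a pseudoreceptor without a kinase domain that dampens TGF-β family signalling. Its HEB-free region covered the gene's 5′ end on chromosome 18, with a height of 43.1, 170 ChIP tags against 19 input tags and an enrichment of 8.95, and ESC HEB was 25912 bp away. All 4 other lists had a region over the same 5′ end, with Endoderm SMAD2/3 at a height of 86.4, and HEB at 34.9 in ESC+SB, 30.9 in Endoderm+SB and 25.6 in Endoderm. The Bambi site is thus HEB-free in the untreated ESC library and not in the other HEB libraries, where its heights were within 10 of the lists' minimum of 25.0 (28.0 for ESC+SB HEB).

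HEB-free regions were weaker and narrower than HEB-overlapping ones but no less enriched over input. Their median height was 30.7 (CI 30.0 to 31.7, range 25.0 to 263), against 35.3 (CI 34.7 to 36.0, range 25.0 to 1258) for HEB-overlapping regions. HEB-free regions had a median width of 400 bp, 122 ChIP tags and 17 input tags, against 537 bp, 174 ChIP tags and 27 input tags for HEB-overlapping regions. The median tag enrichment was 7.00 (CI 6.71 to 7.54) for HEB-free regions, against 7.03 (CI 6.83 to 7.16) for HEB-overlapping ones, a difference within the counting error. Both lists that define the set start at a height of 25.0, so many HEB-free regions sit close to the level at which SMAD2/3 itself was listed.

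The strongest HEB-free regions recurred in endoderm, and many had no gene listed. Of the 10 with the highest tag enrichment, 7 had no gene listed, 0 were promoter-proximal, 8 overlapped Endoderm SMAD2/3, 2 overlapped Endoderm HEB and 0 overlapped either HEB list made with SB. Of the 10 with the highest ChIP height, 6 had no gene listed, 9 overlapped Endoderm SMAD2/3 and 1 overlapped ESC+SB HEB. In the highest height quintile of the ESC SMAD2/3 list, 29 of 65 HEB-free regions had no gene listed (44.6%), beside 38.8% of all 663, and 52 overlapped Endoderm SMAD2/3 (80.0%), beside 56.9% of all 663. A region with no listed gene at chr5:117571651-117572129 had the highest enrichment, 66.8, from 668 ChIP tags against 10 input tags, with a height of 423 in endoderm against 182 in ESCs. Another at chr1:18258926-18259307 had 465 ChIP tags against 7 input tags, an enrichment of 60.9 and a height of 150, and lay 761765 bp from the nearest ESC HEB region. Acad11, for an acyl-CoA dehydrogenase, and the neighbouring chemokine receptor gene Ccrl1 shared 1 region, with a height of 593 and an enrichment of 121 in endoderm, against a height of 81.3 and an enrichment of 28.9 in ESCs. The remaining regions without a gene among these were at chr4:9037542-9037833, chr1:180437127-180437436, chr9:11106237-11106774, chr2:160174589-160175050, chr13:40912891-40913133, chr3:52367523-52367939, chr14:62377374-62377824 and chr5:112199178-112199780, with ESC heights from 48.2 to 139.

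The 2 promoter-proximal regions among the 10 highest lay over the 5′ ends of Ccny and Clcn4-2. Ccny encodes cyclin Y, a membrane-linked cyclin. SMAD2/3 at its 5′ end had a height of 255 and an enrichment of 27.3 in endoderm, against 226 and 19.3 in ESCs, and an ESC+SB HEB region of height 34.4 overlapped it. Clcn4-2 encodes a chloride and proton exchanger of intracellular membranes. Its region had a height of 672 with 1905 ChIP tags in endoderm, against 167 with 563 ChIP tags in ESCs. The input was also high at Clcn4-2, 66 tags in endoderm and 78 in ESCs, so the enrichment was 28.9 in endoderm against 7.22 in ESCs, and no HEB list had a region there.

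HEB-free regions lay at gene starts more often than HEB-overlapping ones, though not at every level of ChIP height. A region was promoter-proximal when at most 1 kb separated it from the 5′ end of its listed gene, which held for 170 HEB-free regions (25.6%, CI 22.4 to 29.1), against 454 HEB-overlapping regions (13.2%, CI 12.1 to 14.3) and 15.2% of all ESC SMAD2/3 regions. The 5′ end lay inside the region at 122 (18.4%) of the HEB-free and 262 (7.60%) of the HEB-overlapping regions. A gene body held 373 HEB-free regions (56.3%) against 1566 HEB-overlapping ones (45.4%), and no gene was listed for 257 HEB-free regions (38.8%, CI 35.0 to 42.6) against 1721 HEB-overlapping ones (49.9%, CI 48.2 to 51.6), with 48.1% for all ESC SMAD2/3 regions. The promoter-proximal share of HEB-free regions was 37.1% in the lowest height quintile, 10.1% in the 4th and 23.1% in the highest. For HEB-overlapping regions it was 20.2%, 10.2% and 9.91% in the same quintiles, so the sets did not differ in the 4th. Promoter-proximal HEB-free regions had a median enrichment of 4.49 and 56.4 input tags per kb, against 8.31 and 38.5 input tags per kb for the other HEB-free regions. HEB-overlapping regions differed in the same direction, with 5.22 and 57.1 input tags per kb when promoter-proximal, against 7.29 and 47.6 for the others. The part of open chromatin or of input signal at gene starts in these shares was not tested.

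By tag enrichment the 5 leading promoter-proximal regions were at Ccny (19.3), Lrrc2 (15.3), Gtf2a1 (14.6), Myo1d (12.6) and Has3 (12.2). Has3 encodes a hyaluronan synthase, and its region had a height of 89.4 and an enrichment of 29.9 in endoderm, against 41.7 and 12.2 in ESCs. Gtf2a1 encodes a subunit of the general transcription factor TFIIA, with a height of 68.9 in endoderm against 54.2 in ESCs. Myo1d, for a class I myosin, had 2 adjacent HEB-free regions, both overlapping Endoderm SMAD2/3. Lrrc2, for a leucine-rich repeat protein, was just above the listing level with a height of 25.7 and lay 133 bp from an ESC HEB region, and it was in no other list.

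Most HEB-free regions lay over 10 kb from ESC HEB, though not in every case. The gaps were not compared with those of randomly placed regions. The gap to the nearest ESC HEB region, which follows from the rule and is given as a description, had a median of 22559 bp (CI 18275 to 26074) and ran between 10 bp and 3086351 bp. It was at most 1 kb for 82 regions (12.4%), from 1 to 10 kb for 161 (24.3%), from 10 to 100 kb for 304 (45.9%) and over 100 kb for 116 (17.5%). Among the closest were Dact3, for a Dishevelled-binding protein, at 23 bp and chr12:73955371-73955741 at 51 bp. On the other side of the rule, HEB overlapped SMAD2/3 by 6 bp at St14, which encodes the protease matriptase, by 7 bp at chr6:64961515-64962039 and by 28 bp at 4930539E08Rik. These cases had SMAD2/3 heights from 27.5 to 46.7, and all but 4930539E08Rik were below 30. The 3 most distant regions had no gene listed, at chr4:69485286-69485909, chrX:47098381-47098820 (1292675 bp from HEB) and chr8:58697593-58698004 (1092846 bp).

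**Figure D1:**
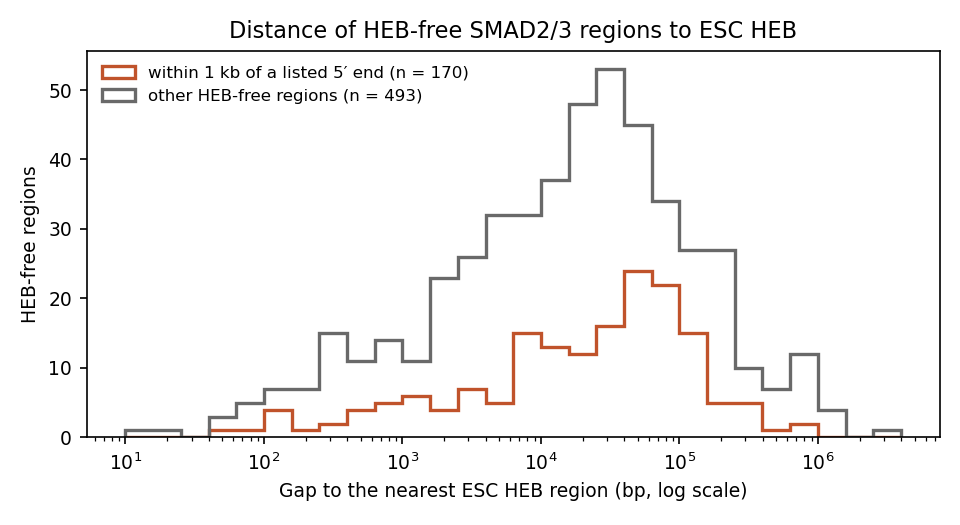
Gap in bp (log scale) between each HEB-free ESC SMAD2/3 region and the nearest ESC HEB region, as counts of regions, for the 170 regions within 1 kb of a listed 5′ end and the 493 others. Both outlines peak beyond 10 kb, with 82 of the 663 regions within 1 kb of HEB.

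A HEB-free region was seldom the flank of a HEB-overlapping one. A HEB-overlapping ESC SMAD2/3 region lay within 1 kb of 46 HEB-free regions (6.94%) and within 10 kb of 100 (15.1%). Skil was such a case. It encodes SnoN, a co-repressor that binds SMADs, and its HEB-free region of height 29.8 began just after a HEB-overlapping region of height 216 over the 5′ end. In endoderm a single SMAD2/3 region of height 680 and enrichment 96.2 spanned both, with its summit 1066 bp from that of the HEB-free region.

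SMAD2/3 was listed again in endoderm at more than 1 in 2 HEB-free regions. Endoderm SMAD2/3 overlapped 377 HEB-free regions (56.9%, CI 53.0 to 60.7), against 1213 HEB-overlapping regions (35.2%, CI 33.6 to 36.8) and 38.7% of all ESC SMAD2/3 regions. Endoderm HEB overlapped 103 HEB-free regions (15.5%, CI 12.9 to 18.5), against 1242 HEB-overlapping regions (36.0%, CI 34.4 to 37.6) and 32.7% of all. Endoderm+SB HEB overlapped 105 HEB-free regions (15.8%, CI 13.1 to 18.8), against 715 HEB-overlapping regions (20.7%, CI 19.4 to 22.1) and 19.9% of all. With HEB-overlapping regions weighted to the promoter-proximal share of HEB-free ones, their share with Endoderm+SB HEB was 25.3%. ESC+SB HEB overlapped 120 HEB-free regions (18.1%, CI 15.2 to 21.2), against 3084 HEB-overlapping regions (89.4%, CI 88.4 to 90.4) and 77.9% of all, and this last contrast is tied to the rule, since both lists are HEB in the same cell line. The Endoderm HEB and Endoderm+SB HEB contrasts also draw on the rule. The set was chosen for the absence of HEB, and the differentiating cells came from the same line. In none of these 4 lists were 246 HEB-free regions (37.1%, CI 33.4 to 40.9), against 211 HEB-overlapping regions (6.12%, CI 5.34 to 6.97) and 11.1% of all. That contrast too rests on ESC+SB HEB and so on the rule: over the 3 endoderm lists alone, 269 HEB-free regions were in none (40.6%, CI 36.8 to 44.4), against 1882 HEB-overlapping regions (54.6%, CI 52.9 to 56.3) and 52.3% of all.

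**Figure D2:**
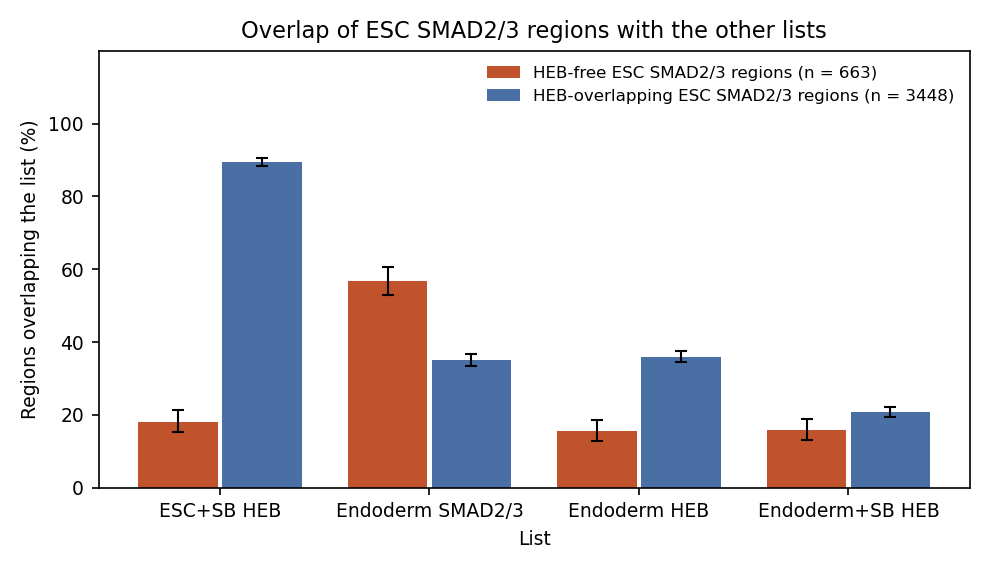
Percentage of HEB-free (n = 663) and HEB-overlapping (n = 3448) ESC SMAD2/3 regions that overlap each of the 4 other lists by 1 bp or more, with exact 95% intervals for counting error. Endoderm SMAD2/3 is the list in which the HEB-free bar is the higher one, at 56.9%, against 35.2% for HEB-overlapping regions.

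The endoderm SMAD2/3 share was higher for HEB-free regions at every level of ChIP height. From the lowest to the highest height quintile of the ESC SMAD2/3 list it was 50.0%, 55.1%, 51.8%, 64.2% and 80.0% for HEB-free regions, against 31.3%, 33.5%, 30.5%, 32.3% and 46.9% for HEB-overlapping regions, and the intervals of the sets did not overlap in any quintile. HEB-free regions numbered 194, 156, 139, 109 and 65 in these quintiles. With HEB-overlapping regions weighted to the heights of the HEB-free ones their share was 33.3%, and weighted to their promoter-proximal share it was 40.0%, against 56.9% for HEB-free regions. The distance to ESC HEB went with smaller differences, as Endoderm SMAD2/3 overlapped 47.6% of HEB-free regions within 1 kb of ESC HEB, 52.8% at 1 to 10 kb, 61.2% at 10 to 100 kb and 57.8% beyond 100 kb.

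**Figure D3:**
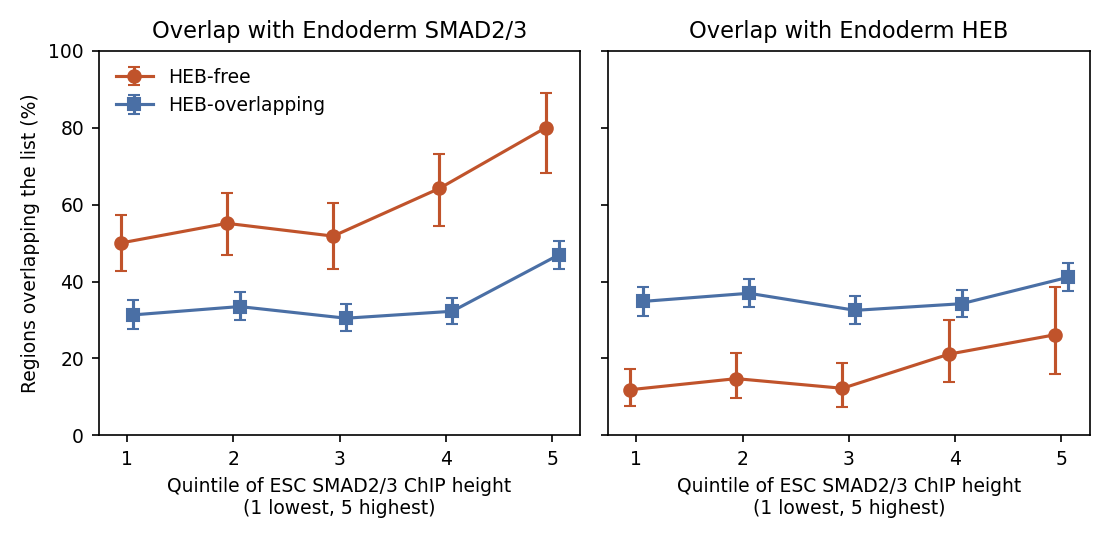
Percentage of ESC SMAD2/3 regions overlapping Endoderm SMAD2/3 (left) and Endoderm HEB (right) in each quintile of ESC SMAD2/3 ChIP height, for HEB-free (circles) and HEB-overlapping (squares) regions, with exact 95% intervals. HEB-free points lie above for SMAD2/3, reaching 80.0% in the highest quintile, and below for HEB.

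Where SMAD2/3 was listed in both states, the endoderm signal was usually the higher one. At the 377 shared HEB-free regions the median height was 52.8 in endoderm against 32.0 in ESCs, and the median enrichment 13.4 in endoderm against 7.00 in ESCs. The endoderm height was higher at 315 of 377 (83.6%) HEB-free regions, against 807 of 1213 (66.5%) HEB-overlapping ones, whose median heights were 47.0 in endoderm and 37.5 in ESCs. Shared HEB-overlapping regions had a median enrichment of 10.9 in endoderm against 6.94 in ESCs. The whole Endoderm SMAD2/3 list had a median height of 34.4. Within it, the median endoderm height stood at percentile 79.7 for shared HEB-free regions and 74.2 for shared HEB-overlapping ones. The summits lay within 100 bp of each other at 360 HEB-free regions (95.5%), with a median offset of 11 bp, and at 84.9% of HEB-overlapping ones. No source used here gives the scaling of heights between libraries, so the size of this change in height cannot be told apart from a difference in depth.

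**Figure D4:**
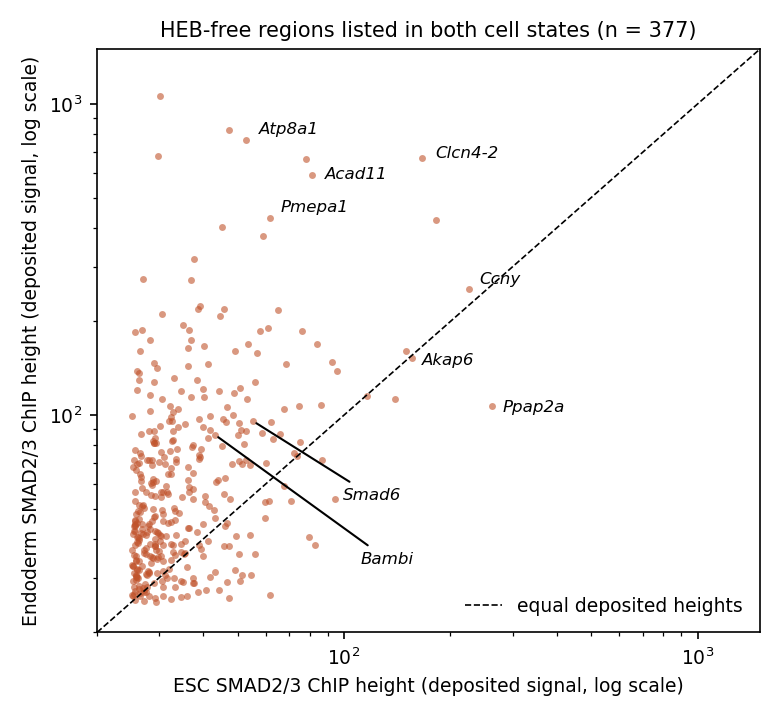
Endoderm (vertical) against ESC (horizontal) SMAD2/3 ChIP height, as deposited and on log scales, at the 377 HEB-free regions listed in both, with equal heights as a dashed line. Of the points, 315 lie above the line, with Atp8a1 at 766 in endoderm and 52.8 in ESCs, while Ppap2a lies below it at 107 in endoderm and 263 in ESCs.

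HEB was listed beside SMAD2/3 in endoderm at a minority of these sites. Of the 377 HEB-free regions with Endoderm SMAD2/3, 95 (25.2%, CI 20.9 to 29.9) overlapped Endoderm HEB, against 942 of 1213 (77.7%) HEB-overlapping regions with Endoderm SMAD2/3. This contrast draws on the rule, since the sets were split by HEB in the same line, and is a description. Without Endoderm SMAD2/3, Endoderm HEB was at 8 of 286 HEB-free regions (2.80%). No HEB list of the 4 had a region at 450 HEB-free regions (67.9%, CI 64.2 to 71.4), and 204 (30.8%) combined Endoderm SMAD2/3 with no HEB in any list.

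Atp8a1, for a flippase that moves phospholipids to the inner leaflet of membranes, was one of the sites where HEB appeared. Its HEB-free region had SMAD2/3 heights of 766 in endoderm and 52.8 in ESCs, with enrichments of 87.2 and 22.8, and HEB heights of 111 in Endoderm+SB and 205 in Endoderm. The gene carried 7 further Endoderm SMAD2/3 regions. Arid3b, for an ARID-domain transcription factor, had SMAD2/3 heights of 403 in endoderm and 45.0 in ESCs, and HEB heights of 54.6 in Endoderm+SB and 183 in Endoderm. Galnt2, for an enzyme that starts mucin-type O-glycosylation, differed in the order of the HEB lists, with a HEB height of 48.6 in Endoderm+SB and 33.2 in Endoderm. Among regions without a gene, chr4:69485286-69485909 had a SMAD2/3 height of 667 in endoderm against 78.2 in ESCs, and it was both the most distant from ESC HEB and overlapped by HEB in both endoderm lists. T2 (enrichment 20.2 in ESCs), 5930412G12Rik (18.4) and chr9:11106237-11106774 (29.2) were further leading regions with Endoderm HEB.

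The HEB-free regions at which HEB was listed in SB-treated cells lay mainly near gene starts. Of the 120 HEB-free regions with ESC+SB HEB, 74 were promoter-proximal (61.7%), as were 71 of the 105 with Endoderm+SB HEB (67.6%), 42 of the 103 with Endoderm HEB (40.8%) and 136 of the 377 with Endoderm SMAD2/3 (36.1%). For HEB-overlapping regions with Endoderm+SB HEB the share was 33.3%, and with Endoderm HEB 21.6%. The ESC+SB HEB regions at HEB-free sites were weak, with a median height of 34.1 against 68.9 at HEB-overlapping sites and a median of 40.0 over the whole ESC+SB HEB list. Seen from the gene starts, 80.0% of the 170 promoter-proximal HEB-free regions overlapped Endoderm SMAD2/3, 43.5% ESC+SB HEB, 41.8% Endoderm+SB HEB and 24.7% Endoderm HEB. The other 493 HEB-free regions overlapped these lists at 48.9%, 9.33%, 6.90% and 12.4%. HEB-overlapping regions also overlapped each list more often at gene starts. Their shares were 68.5%, 93.4%, 52.4% and 59.0% there, against 30.1%, 88.8%, 15.9% and 32.5% elsewhere. The leading regions with ESC+SB HEB by enrichment were at Ccny, at chr9:48889746-48890058 (14.8), at Fxyd6 (12.5), which encodes a regulator of the sodium pump, at Arid5a (11.8) and at Smad6 (11.2). The ESC+SB HEB list itself had a promoter-proximal share of 28.4%, against 17.7% in ESC HEB. For the Endoderm+SB HEB list it was 34.5%, against 15.1% in Endoderm HEB. The part of these differences between the lists was not tested.

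**Figure D5:**
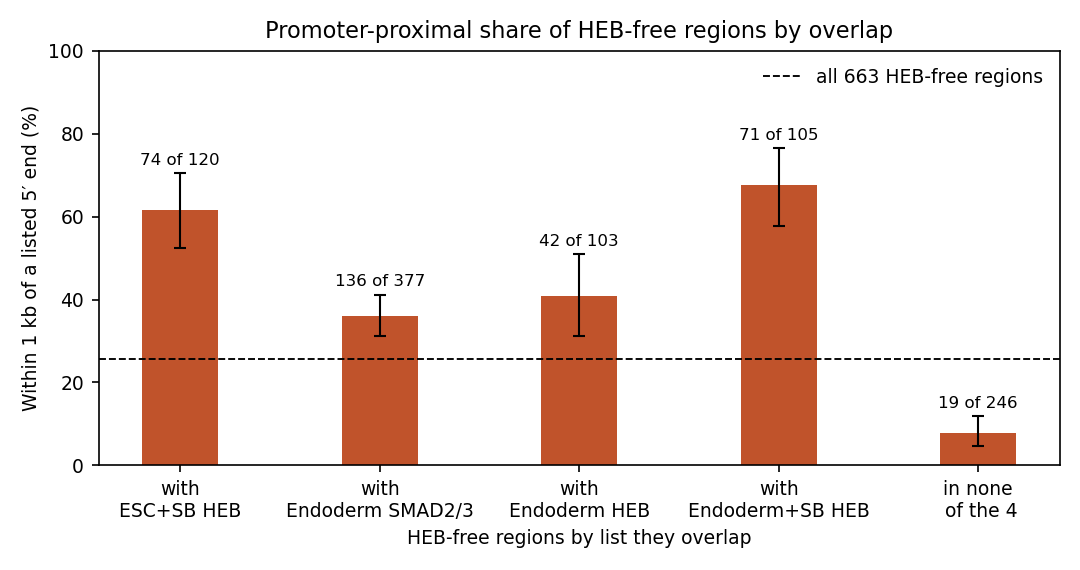
Percentage of HEB-free ESC SMAD2/3 regions within 1 kb of a listed 5′ end, by the list they overlap, with exact 95% intervals and counts above the bars (a region can be in several bars). The share is 61.7% and 67.6% for the HEB lists made with SB and 7.72% for regions in no other list, with 25.6% for all 663 as the dashed line.

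All 4 other lists met at 24 HEB-free regions (3.62%), against 518 HEB-overlapping regions (15.0%), a contrast that draws on the rule through the HEB lists. Of the 24 regions, 20 were promoter-proximal. Bambi and Smad6 were among them. So were, named after their values were seen, Polr2a, for the largest subunit of RNA polymerase II, Taf12, for a subunit of TFIID, Nup153, for a nuclear pore protein, Odc1, for ornithine decarboxylase, Ywhae, for a 14-3-3 protein, and Mnt, for a MAX-binding repressor.

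At the other end, the 246 HEB-free regions in none of the 4 other lists were rarely at gene starts. Of these, 19 were promoter-proximal (7.72%, CI 4.71 to 11.8) and 115 had no gene listed (46.7%). HEB-overlapping regions in none of these lists were also rarely there, with 8 of 211 promoter-proximal. The median height of the 246 was 30.4 and their median enrichment 7.67, against 30.8 and 6.82 for the 417 HEB-free regions in some other list. The leading ones were at chr1:180437127-180437436 (enrichment 30.3), chr13:40912891-40913133 (25.5), Ccdc60 (25.1), chr14:62377374-62377824 (23.1) and chr6:136447068-136447370 (22.6). The chr14 region had the largest height of the 246, 96.9, so regions seen in ESC SMAD2/3 alone reached well above the listing level.

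The HEB-free regions were assigned to 435 genes, 26.0% of the 1676 genes with an ESC SMAD2/3 region. Of these, 84 also had a HEB-overlapping SMAD2/3 region, and 196 (45.1%) had an ESC HEB region elsewhere in the gene or within 1 kb of it. The other 239 genes (54.9%) had no ESC HEB region assigned to them, and a HEB region more than 1 kb from a gene is not counted here. The same shares were not counted over all 1676 genes, so these are descriptions of the 435 genes only.

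Within the Nodal and activin pathway HEB-free regions were about as frequent as over all genes. Of 31 pathway genes, 14 had an ESC SMAD2/3 region, 13 of them a HEB-overlapping one and 4 of them a HEB-free one, beside 26.0% of all genes with an ESC SMAD2/3 region. The 4 were Bambi, Pmepa1, Skil and Smad7, each of which encodes an inhibitor of the signal. The ligand genes Nodal and Gdf3, the co-receptor gene Tdgf1 and the inhibitor genes Lefty1, Lefty2 and Ski had HEB-overlapping regions only. Pmepa1 encodes a membrane protein that binds SMAD2 and SMAD3 and limits their activation, and it had 10 ESC SMAD2/3 regions, 2 of them HEB-free. The HEB-free region over its 5′ end had a height of 429 with 1373 ChIP tags in endoderm, against 61.9 with 165 ChIP tags in ESCs, and an Endoderm HEB region of height 66.1 overlapped it. The other, inside the gene, had a height of 35.0 and was in no other list. Smad7, for an inhibitory SMAD, had a HEB-overlapping region of height 105 over its 5′ end and a HEB-free one of height 27.3 inside the gene that was in no other list.

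On the BMP and TGF-β side, 4 of 30 genes had an ESC SMAD2/3 region, and the region was HEB-free for 2 of them, Bmpr2 and Smad6, beside 26.0% of all such genes and too few genes to read a share from. Smad6, whose palindrome-bearing window is printed above, had its HEB-free region over the 5′ end, with a height of 55.2, 236 ChIP tags against 21 input tags and an enrichment of 11.2. ESC HEB bound close by, 629 bp away, and 3 ESC HEB regions of height 29.5 to 53.4 were assigned to the gene. The 5′ end carried SMAD2/3 of height 95.7 in endoderm, and HEB of height 48.5 in ESC+SB, 34.1 in Endoderm+SB and 37.0 in Endoderm. Bmpr2, the BMP type II receptor, had SMAD2/3 942 bp from its 5′ end in ESCs, with heights of 84.1 in endoderm and 29.1 in ESCs, and an ESC+SB HEB region of height 29.2.

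The other printed promoters had SMAD2/3 in both states. Ogdhl had a height of 170 in endoderm against 84.0 in ESCs, with HEB heights of 27.8 in Endoderm+SB and 40.8 in Endoderm. Arid5a had 59.1 in endoderm against 67.6 in ESCs, with an ESC+SB HEB region of height 29.8. Ankrd16, with 5 CAGAC matches and no E-box, had 49.5 in endoderm against 42.9 in ESCs and no overlapping HEB region. Tex9 had 43.5 in endoderm against 36.1 in ESCs and an ESC+SB HEB region of height 28.1.

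The other gene groups had few genes with any ESC SMAD2/3 region, so their counts are given beside the 26.0% of all such genes that had a HEB-free region, and no share is read from them. Of 28 immediate-early and cytoskeletal SRF target genes, 6 had an ESC SMAD2/3 region and 3 had a HEB-free one, Actb, Egr1 and Ier2. Each was within 1 kb of the 5′ end, had a height between 25.1 and 33.8 in ESCs, and overlapped Endoderm SMAD2/3 and ESC+SB HEB. Egr1, an immediate-early zinc finger factor, had the largest difference of the 3, with 77.7 in endoderm against 33.8 in ESCs. Of 30 Wnt pathway genes, 7 had an ESC SMAD2/3 region, and that of Znrf3, an E3 ligase that removes Frizzled receptors, was HEB-free, with a height of 27.1 and in no other list. HEB-free regions were at 0 of the 12 pluripotency genes with an ESC SMAD2/3 region and at 0 of the 10 such microRNA genes. The cell cycle, polycomb and mesoderm groups had 6, 3 and 2 such genes, too few to read against that share, and 0 HEB-free regions. Of 5 histone genes with an ESC SMAD2/3 region 3 had a HEB-free one, where Hist1h4c had a HEB-free region of height 38.1 and Hist2h2bb and Hist2h3b shared one of height 30.0. All 3 overlapped the other HEB lists and not Endoderm SMAD2/3, and histone genes have near-identical copies among which reads may be split. Rpl15, for a protein of the large ribosomal subunit, had a region of height 28.5 with an enrichment of 3.29 in no other list, and Rps6kl1, for a kinase-like protein, also had a HEB-free region.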

How the data were processed

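ChIP-seq was analysed for 10 libraries, 6 ChIP and 4 input. CASAVA 1.8.2 and the build mm9 come from the submitters' processing notes, and no source used here gives the aligner, the region caller or the gene annotation. The authors deposited 1 region list per ChIP library, and no label states that libraries were pooled. Per the file headers, each region has a count of ChIP tags and of input tags. The deposited ChIP signal is a peak height whose scaling is not stated, and the tag enrichment is the authors' ratio of ChIP to input tags, with a floor under low input counts. The deposited −log10 q-values were too large for that scale and were not used. Coordinates are printed as deposited, since no source used here says whether they count from 0 or 1.

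Regions listed for several genes were counted once. Overlap meant 1 bp or more, computed with Python 3.11.15, pandas 2.3.3 and numpy 2.4.6 and tested on simulated lists, in which 100% of planted overlaps among 4111 regions were recovered. Shares have exact Clopper-Pearson 95% intervals from SciPy 1.17.1, and medians have order-statistic intervals. The deposited gene names matched RefSeq (GRCm38.p6) for 432 of 435 genes, and promoter windows were matched by gene name only, so a window may start at another transcript than the deposited 5′ end. Exons and introns were not annotated. Depth is known only as tags in listed regions. Named regions were Ppap2a, Akap6 and Bambi, the 10 of highest enrichment and of highest height, the 5 leading ones by enrichment in each class, the 3 at each end of the distance range and at the edge of the rule, members of the gene lists and genes with several regions. One region that this rule names is not reported here. The regions and lists were chosen with earlier results of these data known. Alternatives were a coverage of 50%, no HEB within 1 kb, the upper 50% of either list by height, and leaving out the upper 5% of regions by input tags per kb.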

Additional observations from a re-analysis of the deposited data

How the results depend on the processing

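The higher Endoderm SMAD2/3 share of HEB-free regions held under the 5 other ways of defining the set, at 51.5% to 64.9% for HEB-free regions against 32.8% to 38.5% for the rest. Of the recomputed values, 42 stayed within the main value's counting interval or, for the number of HEB-free regions, within 1.5 times it, and 19 did not. Among the upper 50% of ESC SMAD2/3 regions by ChIP height, 242 were HEB-free, with 17.8% promoter-proximal, 46.3% without a gene, a median height of 43.7, a median enrichment of 9.36, and overlaps of 9.50% with ESC+SB HEB, 64.9% with Endoderm SMAD2/3, 19.8% with Endoderm HEB and 12.8% with Endoderm+SB HEB. With only the upper 50% of ESC HEB regions, 1299 were HEB-free, with a median enrichment of 6.42, a median distance of 40980 bp, overlaps of 40.1% with ESC+SB HEB, 51.5% with Endoderm SMAD2/3, 22.6% with Endoderm HEB and 21.5% with Endoderm+SB HEB, and 29.8% in no other list. The size of the set thus depends on where HEB is called. Requiring no HEB within 1 kb moved the median distance to 29878 bp, and requiring the 5′ end inside the region moved the promoter share to 18.4%; both follow from their construction. No replicate could be left out, since each group has 1 library. No paired analysis was possible because each group has 1 library and no test was made. HEB regions below a height of 25.0 are not in the list, and the part of sequencing depth in the set was not tested.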

Other observations

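Several genes carried more than 1 HEB-free SMAD2/3 region. They were 8 genes, Ankrd11, Btbd9, Dlgap1, Lin9, Mnt, Myo1d, Pmepa1 and Zfp423, with 2 regions each. Lin9, for a subunit of the MuvB complex that regulates cell cycle genes, had SMAD2/3 over its 5′ end with a height of 52.8 in endoderm against 25.6 in ESCs, and 6477 bp from the 5′ end with 132 in endoderm against 33.0 in ESCs. Mnt, for a MAX-binding repressor, had heights of 38.3 in endoderm against 25.6 in ESCs over the 5′ end and 75.8 in endoderm against 26.5 in ESCs at 866 bp from it. Zfp423, for a zinc finger factor that binds SMADs in BMP signalling, had ESC heights of 49.6 and 55.0 inside the gene, and Endoderm SMAD2/3 overlapped the first. Dlgap1, for a postsynaptic scaffold protein, had ESC heights of 48.8 and 39.0, and Endoderm SMAD2/3 overlapped both.

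Some HEB-free regions had a much larger deposited height in endoderm than in ESCs, and they are named here after their values were seen. At chr16:29800433-29800876, with no gene listed, SMAD2/3 had a height of 1058 in endoderm against 30.2 in ESCs. At chr19:45820222-45820867, also without a gene, it had 828 in endoderm against 47.4 in ESCs. Lrp1b, for a receptor of the low-density lipoprotein receptor family, had a SMAD2/3 height of 274 in endoderm against 27.0 in ESCs, with HEB heights of 70.1 in Endoderm+SB and 87.8 in Endoderm. Hecw2, for an E3 ubiquitin ligase, had 194 in endoderm against 35.1 in ESCs, with HEB heights of 97.4 in Endoderm+SB and 67.0 in Endoderm.

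The HEB-free share of ESC SMAD2/3 regions by chromosome ran between 9.63% on chromosome 4 (29 of 301, CI 6.55 to 13.5) and 28.1% on chromosome X (9 of 32, CI 13.7 to 46.7). Krt8, which encodes a keratin of simple epithelia and was chosen after its values were seen, had HEB-free SMAD2/3 over its 5′ end with a height of 75.8 in endoderm against 30.3 in ESCs, and an Endoderm HEB region of height 42.9 overlapped it. Another HEB region within 1 kb of the 5′ end had a height of 177 in Endoderm and 60.5 in ESCs.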
